A study of Mus musculus with 9 samples.

Results

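This report covers the genome-wide effect of EVs from enzalutamide-resistant prostate cancer cells (EnzR EVs) on CD11b+ bone marrow cells, apart from the thrombospondin-1 and versican genes and the other genes that the study singled out. The members were the 3 libraries labelled EnzR exosome and the 3 labelled PBS, 6 of the 9 libraries of the series, and every gene that passed a filter on low counts, 12553 of the 23337 genes counted (53.8%). The mice were male C57BL/6 animals, obtained at 3 to 6 weeks of age. Those of the EnzR EV group received 10 µg of EV protein in 100 µl by tail vein on days 1, 3 and 5, and those of the PBS group received 100 µl of vehicle on the same days. The EVs came from 1 human line, CWR-R1 cells made resistant to enzalutamide, and the comparison with PBS does not separate EVs of these cells from EVs in general. Cells were taken from femurs and tibias the day after the last injection, and red cells were lysed. CD11b+ cells were then isolated with a commercial kit, so the RNA is that of a mixed population. The last 3 libraries of the series, from mice given HDL NPs with the EnzR EVs, entered the filter, the scaling and the shared estimate of the spread between mice, and none of the contrasts.

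CD11b is the integrin alpha M chain, carried by granulocytes, monocytes and part of the macrophages of the marrow. Resident marrow macrophages clear dying cells and support red cell formation, and osteoclasts arise from the same monocytic precursors. Cells that sense foreign nucleic acid or receive interferon turn on a shared set of antiviral genes through STAT and IRF factors that bind the interferon-stimulated response element (ISRE). Immediate-early genes such as those of the FOS and EGR families respond within minutes to growth factors, stress and handling of the cells. The unfolded protein response raises chaperones of the endoplasmic reticulum when secretory proteins misfold.

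Itgam, the gene for CD11b, was present in all 6 libraries at 1389, 1864 and 1733 CPM (counts per 1e6 counts, scaled by edgeR's TMM factors) after PBS and 1458, 1876 and 1707 CPM after EnzR EVs. The libraries differed in depth and in leftover ribosomal RNA. Total counts ran from 2575780 to 18110600, with EnzR EVs replicate 1 and PBS replicate 1 the lowest 2 in these groups. Rn45s, the ribosomal RNA precursor, was abundant in EnzR EVs replicate 1 (42.7% of counts), in PBS replicate 1 (20.3%) and in EnzR EVs replicate 3 (14.2%). In the other 3 libraries its share lay from 1.15% to 1.57%. EnzR EVs replicate 1 had the lowest correlation of log2 CPM with its nearest library (0.919 across genes). S100a8 and S100a9, the calprotectin subunits abundant in neutrophils, were lowest in the libraries with most Rn45s. S100a8 stood at 6236, 26500 and 26120 CPM after PBS and 1745, 31250 and 7806 CPM after EnzR EVs, and the groups overlapped. Several results below are therefore also given as the difference between EnzR EVs replicate 2 and PBS replicates 2 and 3 (low Rn45s) and between EnzR EVs replicates 1 and 3 and PBS replicate 1 (high Rn45s), with no test.

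Across all tested genes, edgeR's quasi-likelihood test called 0 genes at a Benjamini-Hochberg adjusted p under 0.05 (0% of 12553), so no gene is described here as changed by that test. At an unadjusted p under 0.05, edgeR had 195 genes higher (1.55%) and 241 lower (1.92%) after EnzR EVs, and 54 higher against 309 lower when libraries were scaled by total counts alone. That scaling moved the median of all genes by −0.154 on the log2 scale and the share of higher genes from 44.7% to 14.9%. The 3 EnzR EV libraries lay above the 3 PBS libraries for 431 genes (3.43%) and below them for 568 genes (4.52%). DESeq2, fitted without the filter, called 8 genes, 3 higher and 5 lower (0.0637% of the 12550 genes that passed the filter and had a DESeq2 adjusted p). The voom method of limma called 0 genes, and with weights for library quality it called 1071 higher (8.53%) and 901 lower (7.18%). These weights were 0.315, 0.334 and 2.65 for the EnzR EV libraries and 0.365, 3.61 and 3.17 for PBS. The weighted count thus rests mainly on EnzR EVs replicate 3 and PBS replicates 2 and 3. Rn45s made up 14.2% of the first and 1.57% and 1.17% of the others, so group and Rn45s share are largely confounded in that count. With the replicate number as a block, edgeR called 1 gene, Ifit1, and 360 genes were higher and 387 lower at an unadjusted p under 0.05.

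**Figure D1:**
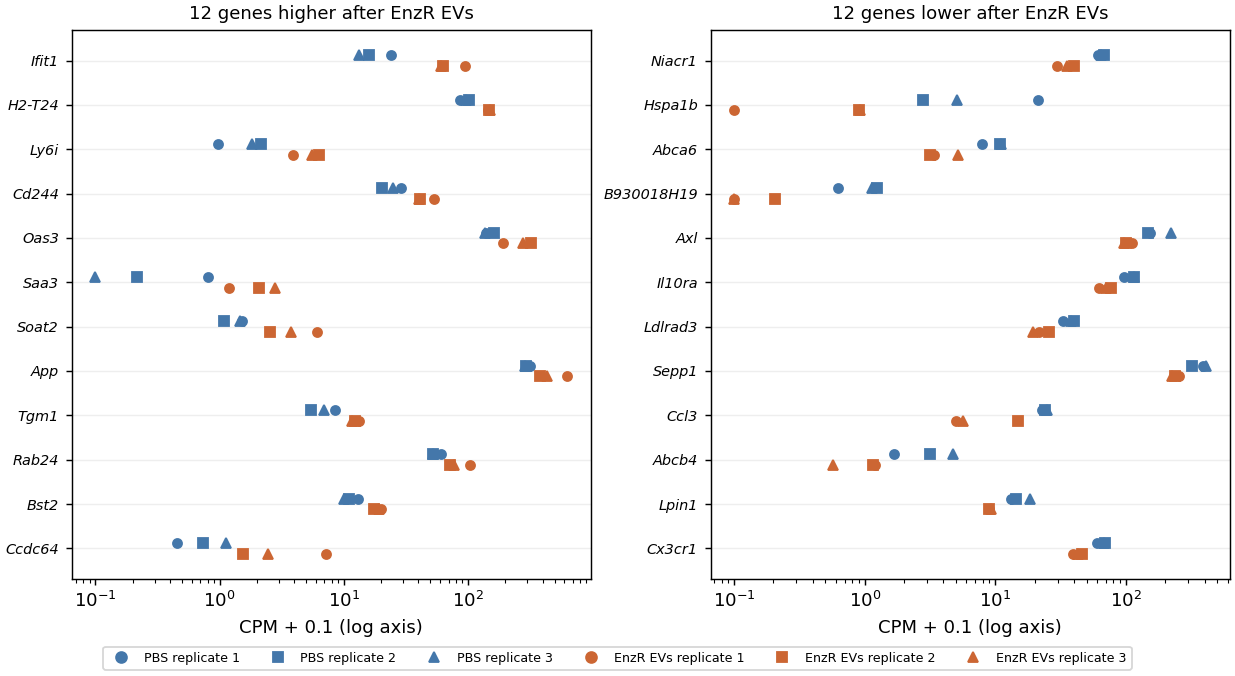
CPM of each library (log axis, 0.1 added) for the 12 higher and the 12 lower genes with the smallest unadjusted edgeR p among genes whose groups did not overlap; blue, PBS, and orange, EnzR EVs, with replicates 1, 2 and 3 as circle, square and triangle. Being free of overlap was part of the choice; for Ifit1, the gene of smallest p, PBS libraries reached 24.1 CPM and EnzR EV libraries started at 61.0 CPM.

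Most interferon-induced genes had positive log2 fold changes after EnzR EVs in the fit to all libraries, led by Ifit1 (chr19:34640889-34650009), which encodes a protein that binds viral RNA lacking cap methylation. Ifit1 stood at 24.1, 15.8 and 13.2 CPM after PBS and 94.9, 62.5 and 61.0 CPM after EnzR EVs. All 3 EnzR EV libraries lay above all PBS libraries, a 4.12-fold difference (log2 2.04, SE 0.27, adjusted p = 0.200 by edgeR, 2.19e-08 by DESeq2). The log2 fold change ran from 1.84 to 2.30 with 1 library left out, was 2.10 in libraries with little Rn45s and 1.65 in those with much, and its adjusted p by edgeR was 0.0181 with the replicate block and 0.0474 without PBS replicate 1.

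The promoters of 3 named genes of this group are shown as examples that hold the ISRE core, which was searched as GAAANNGAA on both strands; capitals mark it, including overlapping matches. They are the 200 bases before the RefSeq start on GRCm38.p6, 5′ to 3′ on the gene's strand, at chr19:34640689-34640888 (plus strand), chr5:120887614-120887813 (minus strand) and chr8:71537473-71537672 (minus strand).
Ifit1: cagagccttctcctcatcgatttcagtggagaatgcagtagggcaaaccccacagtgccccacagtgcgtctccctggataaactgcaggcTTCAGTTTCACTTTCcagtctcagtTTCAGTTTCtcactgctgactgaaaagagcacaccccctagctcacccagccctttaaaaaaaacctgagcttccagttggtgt
Oas1g: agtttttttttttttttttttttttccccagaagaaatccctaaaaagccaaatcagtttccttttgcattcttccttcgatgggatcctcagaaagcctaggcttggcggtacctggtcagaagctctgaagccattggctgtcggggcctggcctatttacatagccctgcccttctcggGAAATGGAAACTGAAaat
Bst2: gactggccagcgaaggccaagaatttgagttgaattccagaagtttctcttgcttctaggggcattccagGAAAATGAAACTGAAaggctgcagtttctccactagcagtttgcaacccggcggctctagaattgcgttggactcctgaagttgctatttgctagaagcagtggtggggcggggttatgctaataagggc

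Shares were counted over a longer window, from 250 bases before a RefSeq start to 50 bases after it, with any start of a gene. The core occurred there in 22 of the 36 antiviral effector genes with a promoter in the RefSeq table (61.1%), of 8 of 9 interferon-induced GTPases (88.9%), of 3 of 14 genes of MHC class I and its antigen processing (21.4%) and of 9.76% of the 27025 genes of the table. A match is a string in a sequence window, not a measured site.

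Among 48 tested antiviral effectors, which block viral replication or sense viral RNA, 42 had a positive log2 fold change, with a median of 0.32 against −0.027 over all tested genes. At an unadjusted p under 0.05, 11 were higher and 0 lower (1.55% and 1.92% of all tested genes). Without overlap, 6 were above PBS (3.43% of all tested genes). Oas3, one of the 2′-5′ oligoadenylate synthetases that activate RNase L, stood at 141, 162 and 137 CPM after PBS and 193, 320 and 277 CPM after EnzR EVs (log2 fold change 0.85, SE 0.20, adjusted p = 0.928 by edgeR). Its paralogue Oas1g stood at 0.880, 2.65 and 1.32 CPM and then 2.19, 8.73 and 5.91 CPM. Oas1g overlapped between groups, its fold change was 1.85 on the log2 scale (SE 0.47, adjusted p = 0.928 by edgeR), and reads can match other Oas1 copies as well. Bst2, or tetherin, which holds budding virus at the cell surface, was at 12.9, 11.04 and 10.01 CPM after PBS and at 19.8, 17.3 and 19.0 CPM after EnzR EVs (log2 fold change 0.73, SE 0.23, adjusted p = 0.928 by edgeR). Bst2 was even across the EnzR EV libraries and separated the groups, which was part of its choice.

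The interferon difference depended on single mice. The mean log2 CPM of the antiviral effectors was 4.52, 5.08 and 4.99 after PBS and 4.04, 5.91 and 5.23 after EnzR EVs, so the groups overlapped, with EnzR EVs replicate 2 the highest and replicate 1 the lowest library. Without EnzR EVs replicate 2 the median log2 fold change of the list was −0.018, with 23 members above 0 and 25 below, and without replicate 1 it was 0.61. In libraries with little Rn45s the median was 0.71, and in those with much it was 0.12. The count at an unadjusted p under 0.05 went from 11 to 29 higher without EnzR EVs replicate 1, to 6 without replicate 2 and to 3 with scaling by total counts alone, which gave a median of 0.20.

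The interferon-induced GTPases, which attack the vacuoles of intracellular microbes, had a positive value for all 14 tested members, with a median of 0.58. Of them 1 was higher at an unadjusted p under 0.05, against 1.55% of all tested genes. Gbp4 stood at 1.41, 1.32 and 1.77 CPM after PBS and 3.84, 3.41 and 2.60 CPM after EnzR EVs (log2 fold change 1.07, SE 0.43, adjusted p = 0.928 by edgeR), without overlap. Ifi47 stood at 26.4, 31.6 and 27.4 CPM after PBS and 29.1, 61.9 and 37.5 CPM after EnzR EVs. The 2 genes differ in which library leads, and the median of the list ran from −0.065 without EnzR EVs replicate 2 to 0.85 without replicate 1. The list of interferon receptors, STATs, IRFs and nucleic acid sensors had a median of 0.077 over 23 tested members, with 13 above 0 and 10 below. It also holds the feedback inhibitors Socs1 and Socs3. At an unadjusted p under 0.05 the list had 1 member higher, Socs3, and 0 lower. Socs3, which inhibits cytokine receptors, stood at 36.1, 30.8 and 37.0 CPM after PBS and 73.5, 50.6 and 45.4 CPM after EnzR EVs (log2 fold change 0.69, unadjusted p = 0.0252 by edgeR).

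MHC class I and its antigen processing had 16 of 19 tested members above 0 and a median of 0.25 that stayed between 0.195 and 0.395 with 1 library left out. At an unadjusted p under 0.05, 4 were higher and 0 lower (1.55% and 1.92% of all tested genes). The median was 0.47 in libraries with little Rn45s and 0.070 in those with much, and with scaling by total counts alone it was 0.14, with 0 members at an unadjusted p under 0.05. H2-T24 (chr17:36003471-36020800), a non-classical class I gene, had 85.9, 103 and 95.8 CPM after PBS and 146, 147 and 150 CPM after EnzR EVs. The EnzR EV libraries were nearly equal and all above PBS (log2 fold change 0.64, SE 0.14, adjusted p = 0.928 by edgeR, 3.66e-04 by DESeq2 and 0.106 by DESeq2 on the 6 libraries alone). Class I genes are close copies, and reads can match several of them. Psmb10, an immunoproteasome subunit, had 70.9, 32.8 and 32.3 CPM after PBS and 150, 45.6 and 79.6 CPM after EnzR EVs, and the groups overlapped. Tapbp, or tapasin, which loads peptide onto class I, had 384, 241 and 220 CPM and then 631, 285 and 445 CPM. Both genes were highest in the libraries with most Rn45s within each group. Their log2 differences within the low and the high Rn45s libraries were 0.49 and 0.62 for Psmb10 and 0.30 and 0.47 for Tapbp. Nlrc5, the transactivator of class I genes, was instead highest in EnzR EVs replicate 2, at 32.4, 78.3 and 46.5 CPM against 21.7, 38.4 and 34.4 CPM after PBS. The 10 class II genes had a median of −0.19 and none at an unadjusted p under 0.05 (1 lower with the replicate block).

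The other higher genes of smallest p without overlap have varied roles. Ly6i, a GPI-anchored protein of the Ly6 family, had 0.880, 2.07 and 1.72 CPM after PBS and 3.84, 6.28 and 5.44 CPM after EnzR EVs (log2 fold change 1.72, SE 0.38, adjusted p = 0.928 by edgeR). Cd244, a receptor of the SLAM family on NK and myeloid cells, had 29.0, 20.1 and 24.8 CPM and then 53.8, 41.0 and 40.3 CPM (log2 fold change 0.86, SE 0.20). For both genes the gap between the groups was part of the choice. With any 1 library left out the log2 fold change was 1.52 to 1.98 for Ly6i and 0.74 to 0.98 for Cd244, which is no independent support. Saa3, an acute-phase serum amyloid of macrophages, was near the counting floor after PBS at 0.704, 0.115 and 0 CPM and at 1.10, 1.97 and 2.72 CPM after EnzR EVs. A count of 3, taken here as the floor, equals 1.65 CPM in EnzR EVs replicate 1, so the value of Saa3 in that library is below the floor and only the other 2 EnzR EV libraries carry the difference. App, the amyloid precursor protein, had 318, 297 and 286 CPM and then 632, 380 and 433 CPM (log2 fold change 0.68, SE 0.20), with EnzR EVs replicate 1 far above the others. The next 3 genes were also chosen for a lack of overlap. Tgm1, a protein-crosslinking transglutaminase, had 8.45, 5.35 and 6.81 CPM after PBS and 13.2, 12.1 and 11.6 CPM after EnzR EVs. Rab24, a small GTPase of the autophagy pathway, had 60.2, 52.3 and 51.9 CPM and then 105, 71.6 and 77.6 CPM. Soat2, which esterifies cholesterol, had 1.41, 0.978 and 1.37 CPM and then 6.04, 2.45 and 3.67 CPM. As for App, the highest value of Rab24 and Soat2 was in EnzR EVs replicate 1, and Tgm1 was nearly even. Ccdc64, an adaptor for dynein transport, had 0.352, 0.633 and 1.03 CPM and then 7.13, 1.44 and 2.37 CPM.

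Immediate-early genes had 24 of 32 tested members below 0 after EnzR EVs, with a median of −0.23. At an unadjusted p under 0.05, 3 were lower and 0 higher (1.92% and 1.55% of all tested genes). Without overlap, 8 were below PBS (4.52% of all tested genes). With the replicate block 6 were lower and 1 higher. Fos (chr12:85473890-85477274), a subunit of the AP-1 transcription factor, had 1172, 1326 and 1332 CPM after PBS and 676, 985 and 741 CPM after EnzR EVs (log2 fold change −0.67, SE 0.21, adjusted p = 0.928 by edgeR). Dusp1, a phosphatase that shuts off p38 and JNK, had 480, 499 and 434 CPM after PBS and 296, 395 and 290 CPM after EnzR EVs (log2 fold change −0.53, SE 0.19). Both genes separated the groups, with EnzR EVs replicate 2 nearest to PBS. Egr1, a zinc finger factor of the same early wave, had 260, 135 and 122 CPM and then 89.4, 107 and 98.0 CPM. The fold change of Egr1 was −0.80 with all libraries and −0.39 without PBS replicate 1, and its difference was −0.26 and −1.47 in libraries with low and high Rn45s. The median of the list ran from −0.38 without EnzR EVs replicate 1 to −0.055 without EnzR EVs replicate 2.

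Dusp1 is shown as a member whose promoter holds the palindromic cAMP response element TGACGTCA, marked in capitals, within chr17:26508473-26508672 (GRCm38.p6, minus strand, 5′ to 3′). This string was found for 3 of the 26 immediate-early genes with a promoter in the RefSeq table (11.5%) and for 2.03% of all genes in it.
Dusp1: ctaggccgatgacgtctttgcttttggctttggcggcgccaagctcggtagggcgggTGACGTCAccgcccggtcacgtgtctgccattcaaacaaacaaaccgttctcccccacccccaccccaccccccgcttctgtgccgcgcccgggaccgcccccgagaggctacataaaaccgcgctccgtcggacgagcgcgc

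Cytokine and chemokine genes pointed the same way, with 17 of 24 tested members below 0 and a median of −0.18. At an unadjusted p under 0.05, 4 were lower and 0 higher (1.92% and 1.55% of all tested genes), and 7 were lower with the replicate block. Ccl3, a chemokine that draws monocytes and acts on osteoclast precursors, had 22.9, 23.8 and 24.6 CPM after PBS and 4.94, 14.7 and 5.56 CPM after EnzR EVs. The PBS libraries were nearly equal and the EnzR EV libraries all lower (log2 fold change −1.38, SE 0.37, adjusted p = 0.928 by edgeR). Cxcl2, a neutrophil chemoattractant, had 80.4, 62.7 and 59.4 CPM and then 33.5, 55.4 and 21.6 CPM. Osm, oncostatin M, a cytokine that acts on bone-forming cells, had 163, 273 and 284 CPM and then 115, 192 and 120 CPM. Ccl6 had 432, 757 and 750 CPM and then 301, 516 and 384 CPM. For Osm and Ccl6 the PBS library with much Rn45s lay within the range of the EnzR EV libraries, and the log2 differences within the low and the high Rn45s libraries were −0.54 and −0.47 for Osm and −0.55 and −0.35 for Ccl6. Cxcl2 and Ccl3 differed more between the classes, at −0.14 and −1.57 for Cxcl2 and −0.71 and −2.10 for Ccl3. The median of the list was −0.63 without EnzR EVs replicate 2 and −0.115 without PBS replicate 3, and it was −0.087 and −0.41 in libraries with low and high Rn45s. The 23 NF-kB subunits, inhibitors and targets had a median of −0.16, with 17 below 0 and none at an unadjusted p under 0.05 (3 lower with the replicate block).

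Hspa1b (chr17:34956429-34959238), the heat-inducible HSP70, had the largest difference by DESeq2 among its calls. It stood at 21.1, 2.70 and 4.98 CPM after PBS and 0, 0.798 and 0.828 CPM after EnzR EVs (log2 fold change −3.65, SE 0.82, adjusted p = 0.928 by edgeR, 0.0122 by DESeq2 and 0.106 by DESeq2 on the 6 libraries alone). PBS replicate 1 was far above the others, and without it the log2 fold change was −2.41; it was −2.01 and −5.79 in libraries with low and high Rn45s. Its near-identical neighbour Hspa1a had 13.02, 2.76 and 4.58 CPM and then 3.29, 0.479 and 1.06 CPM, and reads can match both genes. The list of heat shock chaperones as a whole, these 2 genes included, did not follow. The median of its 20 tested members was −0.030, with 8 above 0 and 12 below. At an unadjusted p under 0.05 the list had 2 members lower, Hspa1b and Hspa1a, and 0 higher (1.92% and 1.55% of all tested genes). With the replicate block it had 3 lower and 4 higher. Chordc1, an HSP90 partner, was at 80.4, 38.8 and 39.1 CPM after PBS and 152, 45.0 and 85.6 CPM after EnzR EVs. The promoter of Hspa1b at chr17:34959239-34959438 (GRCm38.p6, minus strand) is shown because it holds a heat shock element core, GAANNTTC, in capitals, as did 9 of 16 chaperone genes with a promoter in the RefSeq table (56.2%) and 9.04% of all genes in it.
Hspa1b: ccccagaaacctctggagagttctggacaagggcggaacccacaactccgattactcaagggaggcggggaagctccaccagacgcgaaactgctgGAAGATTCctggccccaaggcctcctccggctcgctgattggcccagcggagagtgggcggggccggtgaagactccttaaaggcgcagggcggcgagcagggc

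Of 26 tested genes of marrow macrophages, 24 were below 0, and the median was −0.73. At an unadjusted p under 0.05, 11 were lower and 0 higher (1.92% and 1.55% of all tested genes). Without overlap, 6 were below PBS (4.52% of all tested genes). Axl (chr7:25756500-25788924), a receptor that recognises dying cells through GAS6, had 154, 148 and 221 CPM after PBS and 110, 100.3 and 95.9 CPM after EnzR EVs (log2 fold change −0.78, SE 0.19, adjusted p = 0.928 by edgeR). Fcna, or ficolin A, a lectin that starts complement, had 50.2, 52.2 and 89.2 CPM and then 39.5, 34.7 and 29.2 CPM (log2 fold change −0.91, SE 0.25). Mrc1, the mannose receptor CD206, had 86.2, 123 and 203 CPM and then 48.8, 87.8 and 57.3 CPM, with a small overlap. Trf, transferrin, which carries iron, had 154, 196 and 275 CPM and then 68.0, 139 and 121 CPM. PBS replicate 3 was the highest library for all 4 of these genes. The mean log2 CPM of the list was 5.06, 5.49 and 6.06 after PBS and 4.71, 5.23 and 4.84 after EnzR EVs, and PBS replicate 1 was below EnzR EVs replicate 2. Without PBS replicate 3 the median was −0.32, without EnzR EVs replicate 2 it was −0.89, and within libraries with low and high Rn45s it was −0.48 and −0.30. In bulk RNA, fewer cells of a type and less RNA per cell cannot be told apart.

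C1qa and C1qb, the complement chains that usually mark these macrophages, did not share the difference in the fit to all libraries. Their log2 differences within libraries with low and high Rn45s were −0.22 and 0.26 for C1qa and −0.31 and 0.84 for C1qb. C1qa had 45.8, 59.7 and 90.9 CPM after PBS and 70.2, 63.2 and 42.9 CPM after EnzR EVs (log2 fold change −0.17). C1qb, named after its values were seen, had 63.0, 46.9 and 68.9 CPM and then 191, 45.9 and 66.9 CPM (log2 fold change 0.73), so that EnzR EVs replicate 1 alone stood high, and without it the log2 fold change was −0.077.

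Further genes among the 12 lower ones of smallest p have other roles in metabolism, transport and cytokine signalling, and no list was fixed for them together. Niacr1 (Hcar2, chr5:123863570-123865516), the receptor for niacin and beta-hydroxybutyrate, had 61.4, 67.4 and 63.8 CPM after PBS and 29.6, 40.1 and 35.2 CPM after EnzR EVs (log2 fold change −0.86, SE 0.17, adjusted p = 0.928 by edgeR, 0.0122 by DESeq2 and 0.106 by DESeq2 on the 6 libraries alone). Niacr1 was chosen from all genes for a small p and a lack of overlap, so a small spread against the gap follows from that choice. Its log2 fold change was between −0.95 and −0.76 with any 1 library left out, which is no independent support. Il10ra, the ligand-binding chain of the interleukin-10 receptor, had 96.5, 116 and 115 CPM and then 62.0, 77.4 and 70.5 CPM (log2 fold change −0.64, SE 0.15). Sepp1, selenoprotein P, had 388, 319 and 411 CPM and then 254, 237 and 224 CPM (log2 fold change −0.64, SE 0.16). Both were lower in each EnzR EV library than in any PBS library, as the choice of these genes required. Lpin1, a phosphatidate phosphatase and transcriptional coactivator of lipid metabolism, had 13.02, 14.3 and 18.3 CPM and then 8.78, 8.84 and 9.22 CPM. Abca1, named from the list of LXR targets, which exports cholesterol to apolipoprotein A-I, had 36.3, 47.3 and 65.1 CPM and then 32.4, 28.3 and 32.3 CPM (log2 fold change −0.69, SE 0.22), and the groups came close without overlapping. The last 3 genes are also from the set chosen for a lack of overlap. Abca6, an ABC transporter linked to lipids, had 7.74, 10.8 and 10.9 CPM and then 3.29, 3.03 and 5.08 CPM. Abcb4, a phosphatidylcholine floppase, had 1.58, 3.05 and 4.63 CPM and then 1.10, 1.06 and 0.473 CPM, where 1.10 CPM is below the floor of 3 counts in EnzR EVs replicate 1 (1.65 CPM), so that overlap with PBS replicate 1 cannot be judged. Ldlrad3, a membrane protein of the LDL receptor family, had 33.1, 39.9 and 37.6 CPM and then 21.4, 25.6 and 19.4 CPM. Among 16 LXR targets and cholesterol handling genes, 11 were below 0, with a median of −0.21 that was −0.034 without the 2 libraries of lowest totals. The 24 sterol synthesis genes had a median of −0.057 and none at an unadjusted p under 0.05.

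Among 29 tested monocyte genes 19 were below 0, and 2 were lower at an unadjusted p under 0.05 (1.92% of all tested genes). Their median was −0.17, or −0.36 to −0.036 with 1 library left out. The median was 0.024 in libraries with little Rn45s and −0.30 in those with much. Cx3cr1, the fractalkine receptor of patrolling monocytes, had 60.0, 69.1 and 67.7 CPM after PBS and 39.5, 45.8 and 43.2 CPM after EnzR EVs (log2 fold change −0.61, SE 0.17). Fn1, fibronectin, had 1503, 1228 and 1185 CPM and then 533, 923 and 783 CPM (log2 fold change −0.81, SE 0.22, adjusted p = 0.928 by edgeR). Both separated the groups, whereas Ccr2, the receptor that lets classical monocytes leave the marrow, had 605, 540.2 and 542 CPM and then 318, 550.3 and 435 CPM and overlapped. All 11 tested osteoclast and precursor genes were below 0, with a median of −0.36 and 3 lower at an unadjusted p under 0.05 (1.92% of all tested genes). Ctsk, the collagen-degrading cathepsin of osteoclasts, had 1.41, 8.86 and 3.26 CPM and then 0, 1.60 and 1.54 CPM. Acp5, the tartrate-resistant acid phosphatase, had 8.62, 10.8 and 8.92 CPM and then 4.94, 6.49 and 7.09 CPM. Car2, which supplies acid for resorption, had 19.4, 18.4 and 20.5 CPM and then 15.4, 8.30 and 11.9 CPM. Csf1r, the receptor for M-CSF, was at 381, 339 and 330.1 CPM and then 213, 300.4 and 338 CPM. Levels of Ctsk and Acp5 were low throughout, and the median of the list ran from −0.52 to −0.22 with 1 library left out.

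Granulocytes make up most CD11b+ marrow cells. Their listed genes are counted here at an unadjusted p under 0.05, which 3.47% of all tested genes passed in either direction. The 17 specific granule genes had a median of −0.11, with 13 below 0 and none past that p (1 lower with the replicate block). Without EnzR EVs replicate 1 this median was 0.15, with 14 members above 0, and without EnzR EVs replicate 2 it was −0.405. The 13 azurophil granule genes had a median of 0.098, with 8 above 0 and 1 higher. Without EnzR EVs replicate 2 the azurophil median was −0.0078. The 29 mature neutrophil genes had 21 below 0, 1 lower and a median of −0.18, which was 0.071 without EnzR EVs replicate 1. Ltf, lactoferrin, had 12260, 17950 and 16260 CPM after PBS and 8523, 19330 and 16160 CPM after EnzR EVs. Trem1, which amplifies Toll-like receptor signals, had 261, 375 and 353 CPM and then 162, 270 and 175 CPM (log2 fold change −0.70, unadjusted p = 0.0127 by edgeR). Of the 10 genes with the largest difference in mean CPM, S100a9, S100a8, Lyz2, Camp and Tmsb4x were lower and Rn45s, Rbbp4, Malat1, Ptma and Actb higher. All 10 overlapped between the groups. Rbbp4 had 804, 206 and 204 CPM after PBS and 4595, 230 and 588 CPM after EnzR EVs, and Ptma had 1537, 178 and 130 CPM and then 3791, 180 and 868 CPM, and within each group both followed the share of Rn45s.

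**Figure D2:**
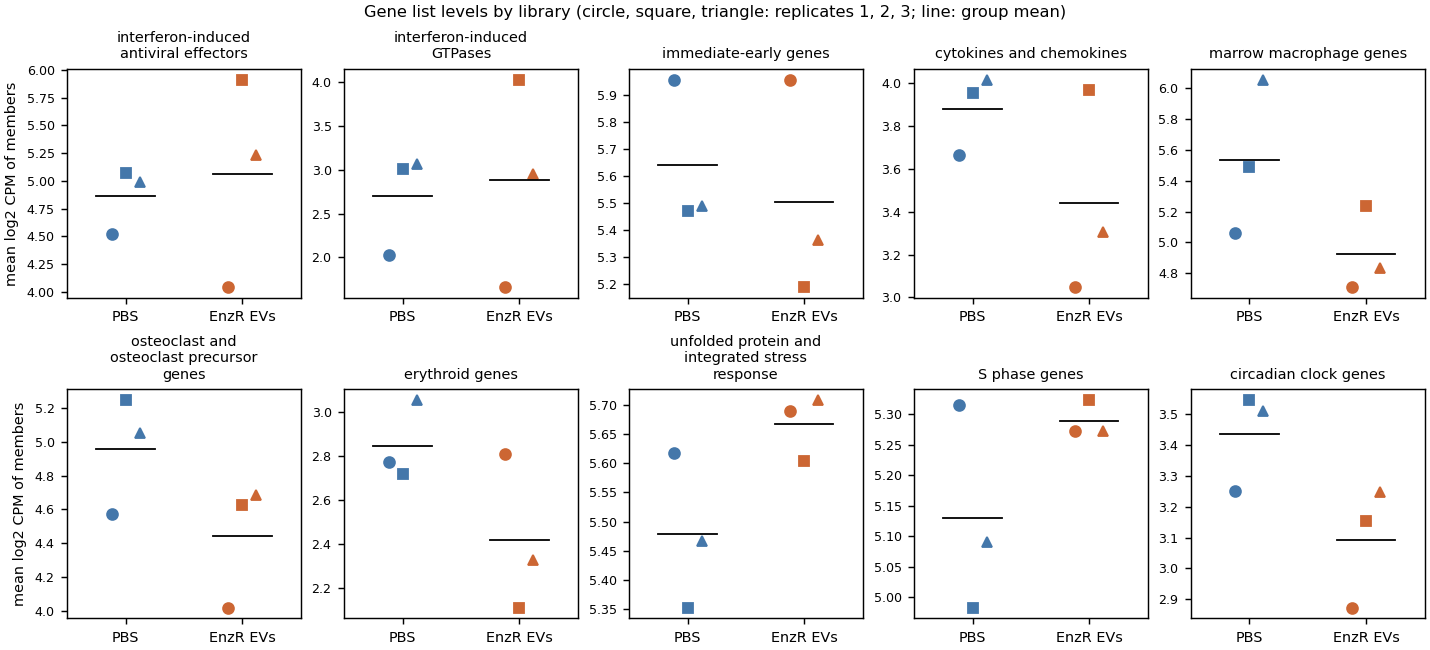
Mean log2 CPM over the tested members of 10 gene lists in each library, with a scale of its own for each panel; blue, PBS, orange, EnzR EVs, circle, square and triangle, replicates 1, 2 and 3, and line, group mean of 3 libraries. The interferon panels show EnzR EVs replicate 2 at the top (5.91 for antiviral effectors) and replicate 1 at the bottom (4.04), and the circadian panel shows the EnzR EV libraries at or below the lowest PBS library.

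The unfolded protein and integrated stress response had 29 of 36 tested members above 0 and a median of 0.26. At an unadjusted p under 0.05, 3 were higher and 1 lower (1.55% and 1.92% of all tested genes). Without overlap, 7 were above PBS (3.43% of all tested genes). With the replicate block 7 were higher and 2 lower. The mean log2 CPM of the list was 5.62, 5.35 and 5.47 after PBS and 5.69, 5.60 and 5.71 after EnzR EVs, and PBS replicate 1 was just above EnzR EVs replicate 2. Dnajc3, a chaperone that also inhibits the kinase PERK, had 133, 127 and 136 CPM after PBS and 199, 155 and 165 CPM after EnzR EVs (log2 fold change 0.39, SE 0.15, adjusted p = 0.928 by edgeR). Creld2 had 12.3, 14.2 and 18.1 CPM and then 18.7, 20.3 and 26.8 CPM, and Manf had 55.8, 38.3 and 40.4 CPM and then 93.3, 55.6 and 63.1 CPM; both are secreted on endoplasmic reticulum stress. Atf4, the transcription factor of the integrated stress response, went the other way at 238, 243 and 239 CPM after PBS and 173, 189 and 162 CPM after EnzR EVs (log2 fold change −0.46, SE 0.16). In the main fit, Dnajc3, Creld2 and Manf were thus the 3 higher members at an unadjusted p under 0.05 and Atf4 the 1 lower. The median of the list ran from 0.24 to 0.36 with 1 library left out and was 0.30 and 0.062 in libraries with low and high Rn45s. With scaling by total counts alone it was 0.10, with 0 members higher and 1 lower at an unadjusted p under 0.05.

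Most cell cycle genes had small positive log2 fold changes in the fit to all libraries. Of 54 S phase genes 40 were above 0 and the median was 0.205, and of 58 G2/M genes 46 were above 0 and the median was 0.13. At an unadjusted p under 0.05, 3 S phase and 4 G2/M genes were higher (1.55% of all tested genes). At that p 0 genes of either list were lower (1.92% of all tested genes). Ccne1, cyclin E1, which drives entry into S phase, had 9.33, 12.5 and 11.8 CPM after PBS and 23.6, 17.8 and 14.2 CPM after EnzR EVs (log2 fold change 0.68, SE 0.23, adjusted p = 0.928 by edgeR). Cdk1, the mitotic kinase, had 104, 79.4 and 81.8 CPM and then 160, 109 and 112 CPM, and Cdc20, which activates the anaphase-promoting complex, had 65.8, 57.9 and 65.3 CPM and then 108, 80.4 and 74.1 CPM. With the replicate block 9 S phase and 10 G2/M genes were higher. Ccne1, Cdk1 and Cdc20 were free of overlap and were highest in EnzR EVs replicate 1. The medians in libraries with low and high Rn45s were 0.31 and −0.017 for S phase and 0.42 and −0.14 for G2/M. Scaling by total counts alone gave medians of 0.028 and −0.015.

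Circadian clock genes had 13 of 16 tested members below 0, 2 lower at an unadjusted p under 0.05 (1.92% of all tested genes) and a median of −0.27. Nr1d2, the repressor REV-ERB beta, had 14.1, 11.3 and 14.8 CPM after PBS and 3.29, 8.68 and 7.92 CPM after EnzR EVs, without overlap (log2 fold change −0.88, SE 0.28, adjusted p = 0.928 by edgeR). Per1, a repressor of CLOCK and BMAL1 that also responds to glucocorticoids, had 97.2, 175 and 166 CPM and then 63.7, 110 and 111 CPM. Per2 had 24.5, 45.3 and 41.5 CPM and then 14.3, 34.7 and 23.9 CPM, and Clock had 20.1, 24.1 and 26.1 CPM and then 10.4, 22.9 and 16.7 CPM. For Per1 and Per2 the PBS library with much Rn45s lay among the EnzR EV libraries. The median of the list ran from −0.37 to −0.23 with 1 library left out, and was −0.37 and −0.20 in libraries with low and high Rn45s. The hour of harvest of each mouse is not given in the sources used here, and its part in these values was not tested. The 15 glucocorticoid-induced genes had a median of −0.12 and none at an unadjusted p under 0.05 (1 higher and 2 lower with the replicate block).

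Markers of other marrow lineages, of which some NK and dendritic cells also carry CD11b, mostly had negative medians after EnzR EVs. Of 35 erythroid genes 25 were below 0 and 9 were lower at an unadjusted p under 0.05 (1.92% of all tested genes), with a median of −0.23. Spna1, alpha spectrin of the red cell membrane skeleton, had 6.69, 5.81 and 7.61 CPM after PBS and 4.39, 1.49 and 2.25 CPM after EnzR EVs (log2 fold change −1.58, SE 0.50), and its partner Spnb1 had 19.2, 15.4 and 21.6 CPM and then 14.3, 9.74 and 11.9 CPM. The summed level of the erythroid list overlapped, at 874, 968 and 990.3 CPM against 889, 772 and 832 CPM. Without EnzR EVs replicate 1 the median was −0.79, and without replicate 2 it was −0.11. Of 22 B lineage genes 19 were below 0, with a median of −0.73, and 2 were lower at an unadjusted p under 0.05 (1.92% of all tested genes). The B lineage median was −1.32 without EnzR EVs replicate 1 and −0.39 without EnzR EVs replicate 3. Pax5, which fixes B cell identity, had 0.880, 0.633 and 0.629 CPM and then 0, 0.160 and 0.118 CPM. The EnzR EV values did not exceed the floor of 3 counts, which was 1.65, 0.160 and 0.355 CPM in these libraries. No PBS value of Pax5 reached 1.65 CPM, so the 0 in EnzR EVs replicate 1 cannot be told from the PBS level. The summed level of the B lineage list was 176, 132 and 153 CPM against 151, 122 and 161 CPM. Igj, the joining chain of secreted antibodies, had 10.7, 5.18 and 5.95 CPM and then 6.59, 1.65 and 0.709 CPM. Medians were −0.20 for 23 T and NK cell genes, −0.39 for 14 dendritic cell genes, −0.18 for 26 platelet and megakaryocyte genes and −0.26 for 20 stromal genes. With 1 library left out these ran, in the same order, from −0.38 to 0.016, −0.62 to −0.27, −0.61 to −0.059 and −0.665 to 0.0925. The platelet and stromal lists turned sign between libraries with low and high Rn45s, from −0.79 to 0.35 and from −0.84 to 0.75. The part of these other cells in the differences above was not tested.

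Of 17 eosinophil, basophil and mast cell genes 14 were below 0, with a median of −0.33. At an unadjusted p under 0.05, 1 was higher and 0 lower (1.55% and 1.92% of all tested genes). That gene, Hdc, the enzyme that makes histamine, was higher without overlap, at 324, 416 and 397 CPM after PBS and 486, 546 and 524 CPM after EnzR EVs (log2 fold change 0.45, SE 0.17, adjusted p = 0.928 by edgeR). Without overlap, the list had 1 member higher and 3 lower (3.43% and 4.52% of all tested genes). Neither of 2 proteases of basophils and mast cells passed that p, but both were lower without overlap. Mcpt8 had 32.0, 27.6 and 29.1 CPM and then 15.9, 24.3 and 11 CPM, and Cpa3 had 11.3, 11.04 and 12.9 CPM and then 3.29, 7.61 and 6.38 CPM. Prg2, the major basic protein of eosinophils, overlapped at 1903, 1754 and 1933 CPM against 2806, 1609 and 2717 CPM. Other lists covered housekeeping and metabolic functions. Medians were 0.015 for 75 respiratory chain and ATP synthase genes, 0.059 for 71 mitochondrial ribosomal protein genes, −0.19 for 80 cytosolic ribosomal protein genes (57 below 0), 0.12 for 37 proteasome subunits, −0.023 for 25 antioxidant genes, 0.076 for 27 glycolysis and hypoxia genes, −0.13 for 24 lysosome and autophagy genes, −0.12 for 27 vesicle biogenesis and uptake genes and −0.049 for 13 p53 targets. The median of the proteasome list was −0.0056 when libraries were scaled by total counts alone. For cytosolic ribosomal protein genes the median was 0.036 and −0.49 in libraries with low and high Rn45s, and −0.055 without EnzR EVs replicate 1.

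**Figure D3:**
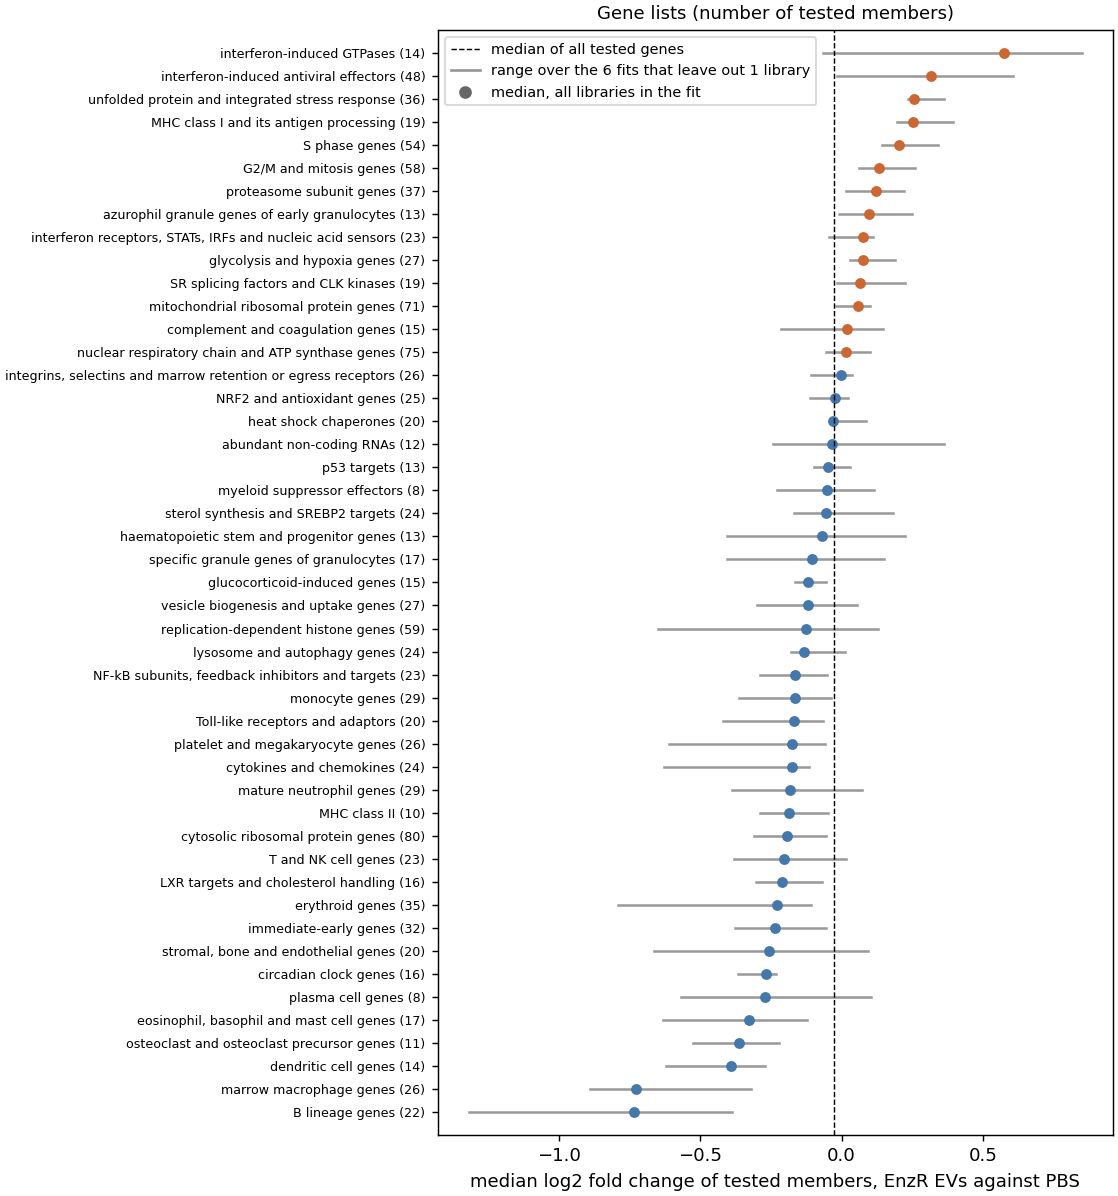
Median log2 fold change of the tested members of each of 47 gene lists, EnzR EVs against PBS, with the range over the 6 fits that leave out 1 library (grey line) and the median of all tested genes (dashed line, −0.027). The stress response, MHC class I and circadian lists have short ranges on 1 side of 0, and the interferon-induced GTPases run from −0.065 to 0.85.

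**Figure D4:**
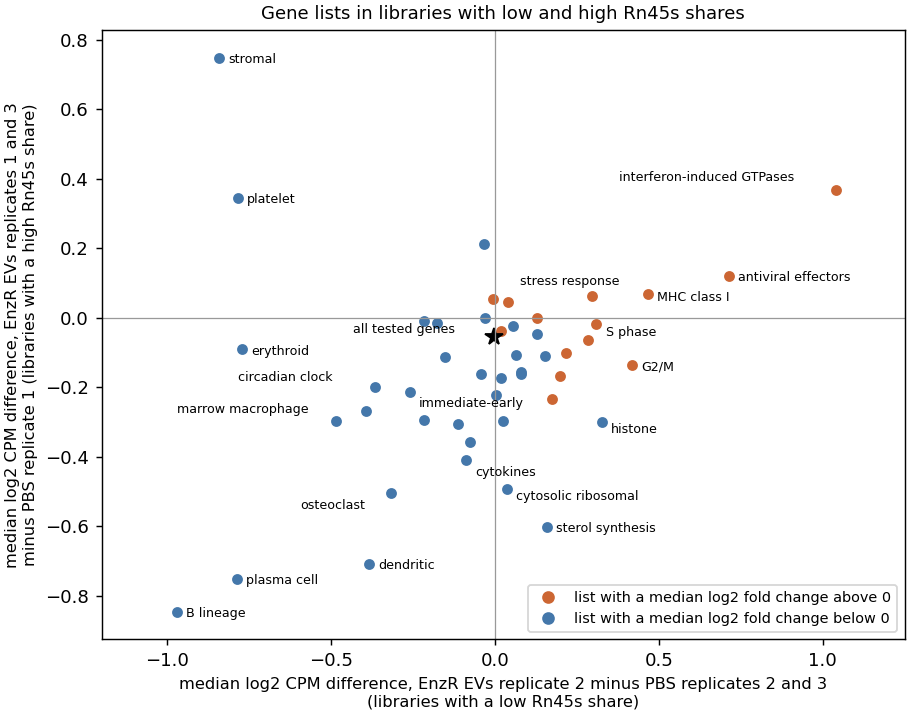
Median log2 CPM difference of each gene list between EnzR EVs replicate 2 and PBS replicates 2 and 3, which have little Rn45s (x axis), and between EnzR EVs replicates 1 and 3 and PBS replicate 1, which have much (y axis); orange and blue, lists with a median log2 fold change above and below 0 in the fit to all libraries, and star, all tested genes. Interferon lists are above 0 in both, B lineage, macrophage, osteoclast and circadian lists are below 0 in both, and stromal and platelet lists have opposite signs.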

How the data were processed

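The files hold read counts per gene, deposited by the authors for each of 9 libraries of CD11b+ bone marrow RNA (3 mice a group). Per the labels and the study's methods, rRNA-depleted stranded single-end libraries were trimmed (cutadapt 1.13), aligned to mm10 with STAR and counted with HTSeq 0.6.1p1. The strand setting of the counting is not given in the sources used here.

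Counts were tested in R 4.3.3 with edgeR 4.0.16 (filterByExpr, TMM, robust quasi-likelihood fit over all 9 libraries, contrast of EnzR EVs and PBS, Benjamini-Hochberg adjustment). Alternatives used limma 3.58.1 and DESeq2 1.42.0, other scalings and filters, and left out libraries. The script was tested on simulated data. The sample titles number the replicates and name no pairs of mice, so the replicate block treats equal numbers as pairs without a stated pairing. Deviations from group means of same-numbered PBS and EnzR EV libraries correlated at 0.473, 0.492 and 0.131. PBS replicate 3 did not correlate best with the EnzR EV library of its own number. The floor is 3 counts and covers counting error only.

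The 47 gene lists held 1356 symbols, 1350 of them in the counts (19 through a synonym). Members and lists were chosen with earlier results of these data known. Genes named in the text were drawn from the 12 higher and 12 lower genes of smallest p without overlap, up to 4 members of smallest p per list, the 10 largest CPM differences, the 5 highest and 5 lowest calls of DESeq2 and weighted voom, and fixed cell type markers, and not all of these are printed. Genes that the study singled out were left out. Positions and promoters came from RefSeq on GRCm38.p6, the assembly named mm10 by UCSC.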

Additional observations from a re-analysis of the deposited data

How the results depend on the processing

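Against 0 genes at an adjusted p under 0.05 and 195 higher and 241 lower at an unadjusted p under 0.05, DESeq2, which took in 18797 genes with no filter on low counts, gave 8 and 477 higher, and on the 6 libraries alone 4, with 320 higher and 114 lower. H2-T24, Niacr1 and Hspa1b lost their DESeq2 call on the 6 libraries alone. Voom with quality weights gave 1972, with 2207 higher and 2327 lower. Scaling by total counts gave 54 higher, no filter 1 called and 330 higher, and at least 10 counts in every library 137 lower. edgeR on the 6 libraries alone gave 93 higher and 129 lower, and without the 2 libraries of lowest totals 5 called, 527 higher and 551 lower. The replicate block gave 1 called, 360 higher and 387 lower, and it changed no adjusted call of a named gene other than Ifit1. A term for Rn45s class, chosen after seeing the data, gave 1 called. Leaving out 1 library gave 0 to 2 called, 65 to 1098 higher and 85 to 1022 lower, with the highest of both counts without EnzR EVs replicate 2, the lowest higher count without PBS replicate 2 and the lowest lower count without PBS replicate 3. Plain voom, upper-quartile scaling, a fit that was not robust, and leaving out Rn45s and small RNA kept the counts within 1.5 times. Leaving out haemoglobin genes removed no tested gene and shows nothing.

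Among the genes named, 9 turned direction under some setting of the fit, all with groups that overlapped. In the libraries with little Rn45s, S100a8 (0.25), S100a9 (0.17), Malat1 (−0.10), Prg2 (−0.195) and Ccr2 (0.024) also had the sign opposite to that of the fit. With 1 library left out the log2 fold change ran from −0.40 to 0.017 for Camp (the highest without EnzR EVs replicate 1), −0.043 to 4.30 for Rn45s, −0.80 to 0.011 for Tmsb4x, −0.23 to 3.37 for Ptma, −0.022 to 0.17 for Actb, −0.37 to 0.16 for C1qa, −0.077 to 1.12 for C1qb, −0.10 to 0.13 for Itgam and −0.305 to 0.20 for Ltf. Scaling by total counts gave −0.081 for Actb and −0.15 for Itgam. Itgam was at −0.067 by weighted voom and −0.018 with no filter. Without the 2 libraries of lowest totals C1qb was at −0.035 and Ltf at 0.061, and Ltf was at 0.093 with the Rn45s class term. The causes were not tested. No tested gene was at 0 in all 3 PBS or all 3 EnzR EV libraries, so setting such genes to their bound changed nothing. The low totals of EnzR EVs replicate 1 limit values under 1.65 CPM there.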
